A study of Mus musculus with 7 samples.

Results

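The polyamine genes described here are the 10 members *Odc1*, *Amd1*, *Srm*, *Sms*, *Sat1*, *Smox*, *Paox*, *Azin1*, *Oaz1* and *Oaz2*, read by symbol from the 23284 gene symbols measured in skin papillomas of mice. They were chosen on measured values of the same comparison that is described below, in which *Smox* separated the groups, so their differences between groups are given as a description, with no test. The papillomas were raised with DMBA, a carcinogen that starts tumors, and TPA, a phorbol ester that promotes them, in age-matched littermates of C57BL/6 background. All mice carried the *tetO-Nanog* allele, in which a doxycycline-responsive promoter controls a *Nanog* cDNA placed downstream of *Col1a1*, and all drank doxycycline (DOX, 2 mg/ml) during the whole protocol. TG mice (n = 3) also carried *K5-rtTA*, in which the bovine keratin 5 promoter drives the transactivator in the basal layer of stratified epithelia, and CTR mice (n = 4) lacked it. Each papilloma came from a different mouse and was taken either when the protocol ended or earlier at a humane endpoint, so tumor age can differ between mice. The paper reports carcinomas in TG mice only, and many TG mice were killed early because of carcinoma size. Collection time can therefore differ by group as well, and its part in the values was not tested. The labels do not give the sex of the mice.

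Polyamines (putrescine, spermidine and spermine) are small charged molecules that bind nucleic acids and that dividing cells need. Ornithine decarboxylase makes putrescine from ornithine, and spermidine synthase and spermine synthase add aminopropyl groups that S-adenosylmethionine decarboxylase provides. On the way back, spermidine/spermine acetyltransferase acetylates polyamines, polyamine oxidase oxidizes the acetylated forms, and spermine oxidase turns spermine directly into spermidine with release of hydrogen peroxide and an aldehyde. Antizymes bind ornithine decarboxylase and send it to the proteasome, while antizyme inhibitor binds antizymes in its place. In mouse skin, ornithine decarboxylase is a classic gene of TPA-driven tumor promotion, and much of the control of this route acts on translation and protein turnover, which mRNA levels do not show.

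The genes whose values the description turns on are shown first by the DNA just before their start sites, since this is what a reader needs to place them and to compare their letters. RefSeq promoter windows on GRCm38.p6, which run from 250 bases before to 50 bases after a start, were found for 8 of the 10 members, and *Srm* and *Azin1* had none. The 120 bases before the start are printed 5′ to 3′ on the strand of the gene. Capitals mark GGGCGG, the core of a GC box, or its reverse complement, and in *Amd1* also TATAA on both strands, where the matches overlap. *Smox* is read at chr2:131491742-131491861 (+), *Sat1* at chrX:155216450-155216569 (−), *Paox* at chr7:140125565-140125684 (+), *Odc1* at chr12:17544753-17544872 (+) and *Amd1* at chr10:40302189-40302308 (−).
Smox: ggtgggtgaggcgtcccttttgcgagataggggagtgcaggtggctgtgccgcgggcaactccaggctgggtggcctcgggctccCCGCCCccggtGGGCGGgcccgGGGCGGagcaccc
Sat1: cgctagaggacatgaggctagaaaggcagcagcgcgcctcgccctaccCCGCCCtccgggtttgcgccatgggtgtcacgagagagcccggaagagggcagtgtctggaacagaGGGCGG
Paox: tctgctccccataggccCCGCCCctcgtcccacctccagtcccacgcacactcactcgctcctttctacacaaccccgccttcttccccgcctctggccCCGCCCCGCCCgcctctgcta
Odc1: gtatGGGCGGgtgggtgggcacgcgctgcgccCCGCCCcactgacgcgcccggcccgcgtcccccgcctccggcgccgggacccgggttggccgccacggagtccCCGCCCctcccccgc
Amd1: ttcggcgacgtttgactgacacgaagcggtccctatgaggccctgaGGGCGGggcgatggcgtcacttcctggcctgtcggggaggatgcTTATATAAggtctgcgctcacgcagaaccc
Over its whole window of 300 bases, *Smox* held 6 copies of GGGCGG, *Odc1* 4, *Paox* 3, *Sat1* 2 and *Amd1* 1, counted on both strands. *Paox* has a further annotated start 28 bases upstream. GGGCGG was present in 35.66% of all 32851 windows and TATAA in 24.87%. *Amd1* held TATAA 27 and 30 bases before its start, and in *Oaz1* it began 3 bases before the start. A CACGTG, the E-box that MYC proteins bind, lay 196 bases before the more upstream start of *Sms*, and 7.15% of all windows held one. No window of a member held TGANTCA, the AP-1 core, present in 7.81% of windows, or TAATGG, a homeodomain-type core, present in 7.73%. These matches are letters in a window and no measure of binding.

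The targeted gene was checked first. *Nanog*, which encodes a homeobox factor of pluripotent cells, was at 2.70, 2.84, 12.7 and 3.34 FPKM in CTR 1 to CTR 4, and at 36.9, 57.4 and 66.9 FPKM in TG 1 to TG 3. FPKM scales the fragments of a gene to its transcript size and to the total mapped in that library, so that levels of different genes can be compared. CTR 3 was the highest of its group, yet stayed below each TG papilloma. Values read by symbol do not separate the transcript of the transgene from that of the endogenous gene. The widths of the deposited intervals implied between 10074859 and 15710562 reads per library, with CTR 3 and TG 1 the deepest. Keratinocyte markers were abundant throughout, with *Krt14* between 4717 and 10937 FPKM. TG 3 stood apart from the other libraries. Its 10 skeletal muscle markers summed to 712 FPKM, against 1.65 to 3.18 in CTR papillomas and 2.45 and 5.58 in TG 1 and TG 2, with *Ckm* listed at 0 in CTR 2 and CTR 4. Its 10 fibroblast markers summed to 790 FPKM, against 103 to 177 elsewhere, and its median FPKM over all symbols was 1.15, against 0.551 to 0.689. In bulk tissue, fewer cells of a type and less RNA per cell cannot be told apart.

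Of the members, *Smox* was higher and *Paox* lower in all TG papillomas, and *Sat1* was higher by a narrow gap. All 3 act on the way back from spermine and spermidine. The genes of synthesis and the regulators of ornithine decarboxylase overlapped between the groups. 9 of the 10 members entered the limma fit of log2(FPKM + 0.5) over 12299 genes, and *Amd1* was left out because its estimate had failed in CTR 1. 2 of these 9 had every TG above every CTR papilloma, as had 4.93% of all genes, and 1 had every TG below, as had 2.23%. These values chose the members, so nothing is read from the counts. The fit called 0 of 12299 genes at an adjusted p under 0.05, a share of 0%. At an unadjusted p under 0.05 from limma, 4.86% were higher in TG (598 genes) and 1.96% were lower (241 genes).

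**Figure D1:**
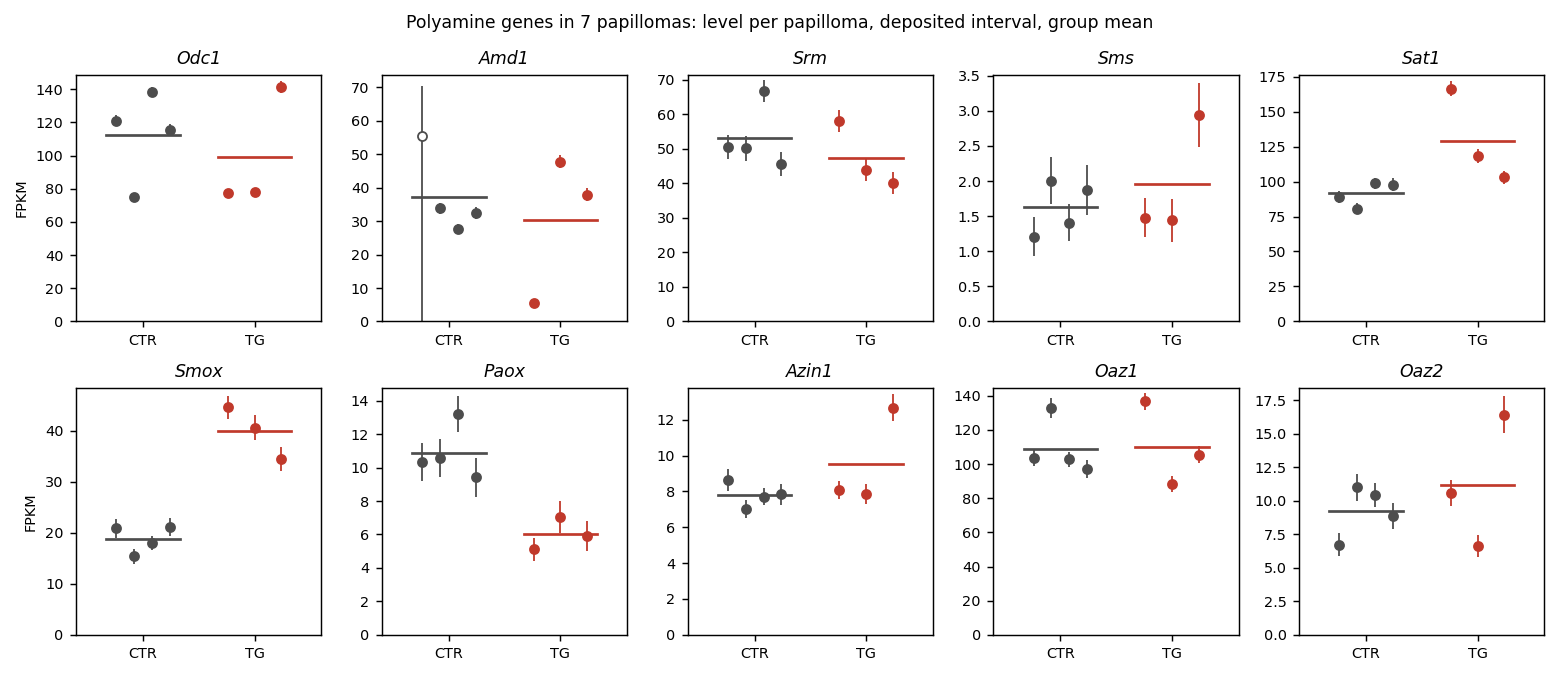
FPKM of each of the 10 members (y axis, starting at 0, with its own scale in each panel) in CTR papillomas 1 to 4 and TG papillomas 1 to 3, drawn left to right within each group. Points are papillomas, thin vertical lines the deposited confidence intervals, horizontal lines the group means, and the open point is the failed *Amd1* estimate of CTR 1. The TG points lie above the CTR points for *Smox* and *Sat1*, below them for *Paox*, and overlap them for the other genes.

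In CTR papillomas the 10 members spanned a wide range of levels per length. *Odc1* was the most abundant (112.5 ± 26.7 FPKM, SD, n = 4), followed by *Oaz1* (mean 109.1, from 97.1 to 133) and *Sat1* (91.5 ± 8.43), and each of these overlapped its neighbour in this order. *Srm* (53.2 ± 9.23) and *Amd1* came next, and overlapped only through the failed *Amd1* estimate of CTR 1, 55.4 FPKM. In the other CTR papillomas *Amd1* was at 27.8 to 33.8 FPKM, below the lowest *Srm* value of 45.6 FPKM. The sum of *Amd1* and its near-identical copy *Amd2*, at 48.2 to 56.1 FPKM, did overlap *Srm*. *Smox* (18.8 ± 2.69) overlapped neither *Amd1* above it nor *Paox* below it. *Paox* (10.9 ± 1.63), *Oaz2* (9.25 ± 1.91) and *Azin1* (7.80 ± 0.666) formed a chain of overlaps, and *Sms* (1.62 ± 0.379) was the lowest, apart from all others. *Odc1* exceeded 98.2% of all symbols and *Smox* 89.4%, while *Sms* exceeded 57.7%.

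*Odc1*, the decarboxylase that opens the route, lies at chr12:17544873-17551502 in the files (GRCm38). It was at 121, 75.1, 138 and 116 FPKM in CTR 1 to CTR 4 and at 77.5, 78.0 and 141 FPKM in TG 1 to TG 3. TG 1 and TG 2 lay close to CTR 2, the lowest of all papillomas, and TG 3 was the highest, so the groups overlapped over their whole range. The difference TG minus CTR was −0.21 ± 0.28 (SE) on the log2(FPKM + 0.5) scale, and it was −0.50 without TG 3. The difference was positive, 0.05, in 1 of 20 alternatives, the one that kept the papillomas of lower depth. Of the 40-base words in its transcript, 48.9% also occurred in other annotated genes, and reads of 40 bases from such words have more than 1 possible origin.

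*Amd1* encodes S-adenosylmethionine decarboxylase, and its values could not be read by themselves. The files list it at chr10:40287458-40302188 with 55.4, 33.8, 27.8 and 32.4 FPKM in CTR 1 to CTR 4 and 5.38, 47.8 and 37.8 FPKM in TG 1 to TG 3. The value of CTR 1 carried a failed status and an interval from 0 to 70.3 FPKM. The entry *Amd2*, an intronless copy, was at 0.738, 14.4, 22.4 and 19.9 FPKM in CTR papillomas and at 39.8, 0.196 and 19.5 FPKM in TG papillomas, each with the status for low data. The files place *Amd2* at chr10:40287465-40302186, inside the *Amd1* locus, whereas GENCODE places it at chr10:35708675-35711892 as a single exon. *Amd1* was lowest where *Amd2* was highest, in TG 1, and the share of *Amd2* in the sum of both entries ran from 0.408% in TG 2 to 88.1% in TG 1.

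The sum of both entries was far more even. It was 56.1, 48.2, 50.1 and 52.3 FPKM in CTR 1 to CTR 4 and 45.2, 48.0 and 57.3 FPKM in TG 1 to TG 3, and the groups overlapped. The group means were 51.7 ± 3.39 (SD, n = 4) and 50.2 ± 6.35 (SD, n = 3), with a difference of −0.05 on the log2 scale when the sum was fitted in place of both entries. The annotated transcripts of the pair were identical in 3188 of 3198 aligned bases, and 1 of the 10 differing bases lay in the coding part. That base is shown in capitals inside the 40-base word around it in each transcript, as a read of this length would cover it.
Amd1: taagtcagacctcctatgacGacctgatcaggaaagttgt
Amd2: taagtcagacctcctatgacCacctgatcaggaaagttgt
Of the 40-base words of *Amd1*, 90.0% occurred in other annotated genes as well, *Amd2* and several pseudogenes among them.

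**Figure D2:**
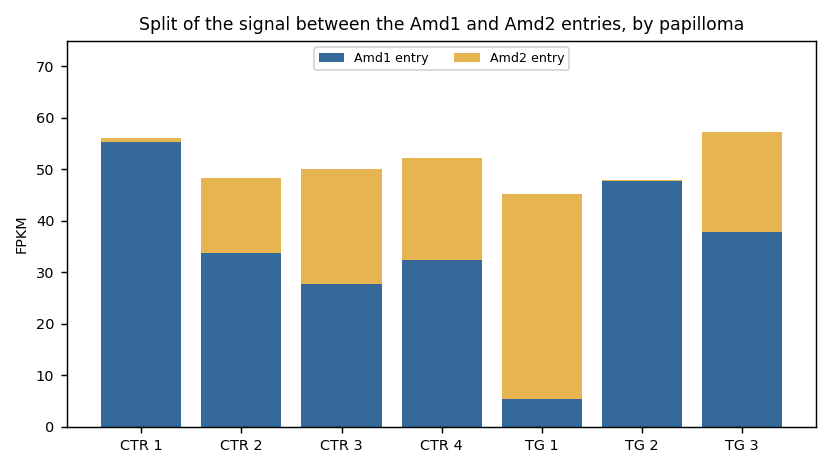
FPKM of the *Amd1* entry (blue) and the *Amd2* entry (yellow) stacked for each papilloma (x axis), on a linear axis from 0. The height of the stack stays between 45.2 and 57.3 FPKM while the *Amd2* share of it varies from 0.408% to 88.1%.

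*Srm* and *Sms*, the synthases of spermidine and spermine, showed no separation of the groups. *Srm* (chr4:148591513-148594619) was at 50.5, 50.1, 66.6 and 45.6 FPKM in CTR papillomas and at 58.0, 44.0 and 40.1 FPKM in TG papillomas, a difference of −0.17 ± 0.20 (SE, log2). It was highest in CTR 3 and lowest in TG 3. *Sms*, at chrX:157443954-157492046, was at 1.21, 2.01, 1.41 and 1.87 FPKM in CTR papillomas and at 1.48, 1.44 and 2.94 FPKM in TG papillomas. TG 3 alone lay above the CTR range, and the difference of 0.17 ± 0.27 (SE, log2) was −0.10 without TG 3 and −0.01 after quantile normalization. The *Sms* values rested on 73 to 168 implied reads per papilloma, the fewest of the members, against 3467 to 8498 for *Odc1*. Of the 40-base words, 5.51% of *Srm* and 31.8% of *Sms* also occurred in other annotated genes.

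*Sat1* encodes the acetyltransferase that marks spermidine and spermine for oxidation or export, and it lies at chrX:155213139-155216409. Its level was 89.2, 80.6, 98.7 and 97.6 FPKM in CTR 1 to CTR 4 and 166, 118 and 103 FPKM in TG 1 to TG 3. All 3 TG papillomas exceeded the CTR range, but TG 3 exceeded CTR 3 by little, and their deposited intervals, 98.2 to 108 and 94.7 to 103 FPKM, overlapped. The group means were 91.5 ± 8.43 (SD, n = 4) and 129 ± 33.1 (SD, n = 3). The difference was 0.47 ± 0.20 (SE, log2) and ranged from 0.27 without TG 1 to 0.62 without TG 3, so the size rested much on TG 1. After upper-quartile scaling the groups overlapped. Of the 40-base words of *Sat1*, 13% also occurred in other annotated genes.

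*Smox*, which encodes spermine oxidase and lies at chr2:131491862-131525183, was at 20.9, 15.4, 18.0 and 21.1 FPKM in CTR 1 to CTR 4. It was at 44.6, 40.7 and 34.5 FPKM in TG 1 to TG 3. The lowest TG papilloma was well above the highest CTR papilloma, and their deposited intervals, from 32.1 FPKM in TG 3 and up to 22.9 FPKM in CTR 4, were apart. The means were 18.8 ± 2.69 (SD, n = 4) and 39.9 ± 5.11 (SD, n = 3), a ratio of 2.12. The difference of 1.07 ± 0.17 (SE, log2) was the largest in size among the members. It stayed between 0.97 and 1.17 in all 20 alternatives, some of which cannot move it. None of the 40-base words of its transcript occurred in another annotated gene.

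*Paox* encodes the oxidase that works on acetylated polyamines, and its locus is chr7:140125685-140134334. It was at 10.3, 10.6, 13.2 and 9.41 FPKM in CTR 1 to CTR 4 and at 5.11, 7.05 and 5.89 FPKM in TG 1 to TG 3. Every TG papilloma was below every CTR papilloma, with means of 10.9 ± 1.63 (SD, n = 4) and 6.01 ± 0.974 (SD, n = 3). The intervals of the closest pair, up to 7.99 FPKM in TG 2 and from 8.26 FPKM in CTR 4, did not touch. The difference was −0.80 ± 0.18 (SE, log2) and −0.80 without TG 3. It lay between −0.92 and −0.61 in all 20 alternatives, some of which cannot move it. Of its 40-base words, 75.3% also occurred in *Gm19680*, another annotated gene that was not analysed here, so part of this level can come from that gene.

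The oxidases thus stood in another proportion in the 2 groups. The ratio of *Smox* to *Paox* FPKM within a papilloma was 2.02, 1.46, 1.36 and 2.24 in CTR 1 to CTR 4. It was 8.73, 5.77 and 5.86 in TG 1 to TG 3, with no overlap. The ratio of *Sat1* to *Smox* was 4.27 to 5.49 in CTR and 2.91 to 3.73 in TG papillomas, since *Smox* differed more than *Sat1*. Both ratios are built from values that chose the members and carry no test.

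*Sat1* and *Sms* lie on the X chromosome, and transcripts of the sex chromosomes differed between papillomas. *Ddx3y*, a gene of the Y chromosome, was at 11.0, 5.13 and 8.55 FPKM in CTR 1, CTR 2 and TG 2 and at most at 0.022 FPKM in the others. *Xist*, the RNA that silences an X chromosome, was at 28.6 and 23.6 FPKM in CTR 3 and CTR 4, at 18.9, 1.19 and 5.89 FPKM in TG 1 to TG 3, and at most at 0.032 FPKM in CTR 1 and CTR 2. Both groups thus held papillomas with and without *Ddx3y*, and the part of sex in the values of the members was not tested.

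Levels of markers of keratinocyte maturation and of other cells are given beside these genes. *Ivl*, which encodes involucrin of the cornified envelope, was at 17.7 to 26.8 FPKM in CTR and at 159, 108 and 36.4 FPKM in TG 1 to TG 3 (adjusted p = 0.538, limma). Of 10 keratinocyte markers it was the only one with an unadjusted p under 0.05, beside 4.86% of all genes higher at that threshold. None of the other maturation markers of that list lay above the CTR range in every TG papilloma. *Lor*, which encodes loricrin, was at 618 to 1555 FPKM in CTR and at 1329, 690 and 366 FPKM in TG papillomas. *Krt10*, a suprabasal keratin, was at 917 to 1440 FPKM in CTR and at 3150, 3133 and 181 FPKM in TG papillomas. *Krt1* was at 187 to 807 FPKM in CTR and at 1517, 3309 and 133 FPKM in TG papillomas. Both were above the CTR range in TG 1 and TG 2 and below it in TG 3.

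Of the fibroblast markers, 10 of 10 had a higher mean in TG papillomas, beside 7383 of all 12299 genes. Of these markers, 3 (*Vim*, *Thy1* and *Pdgfra*) had an unadjusted p under 0.05 from limma, beside 4.86% of all genes higher at that threshold. The sum of the 10 markers was 103 to 177 FPKM in CTR papillomas and 153, 137 and 790 FPKM in TG 1 to TG 3. *Vim*, the intermediate filament of mesenchymal cells, was at 18.0 to 33.5 FPKM in CTR papillomas. In TG papillomas it was at 40.6, 37.3 and 83.3 FPKM, so that every TG papilloma was higher. The same held for *Pdgfra*, at 0.280 to 0.369 FPKM in CTR and at 0.563, 0.613 and 3.52 FPKM in TG papillomas. Every CTR value of *Pdgfra* lay below the mean of 0.5 FPKM required for the fit, so its p rests on low values. Of the endothelial markers, 5 of 5 fitted had a higher mean and 2 (*Pecam1* and *Vwf*) an unadjusted p under 0.05, beside the same shares of all genes. The sum of the endothelial markers was 7.86 to 13.6 FPKM in CTR and 19.6, 10.9 and 29.7 FPKM in TG papillomas. *Pecam1*, an adhesion molecule of endothelium, was at 2.51 to 4.23 FPKM in CTR and at 5.86, 4.30 and 9.64 FPKM in TG papillomas. It too had every TG papilloma above every CTR papilloma, as had 4.93% of all genes. The paper lists *Pdgfra* and *Pecam1* among genes related to cancer stem cells and reports both as higher in TG papillomas by qRT-PCR. It also reports more vimentin protein in TG carcinomas. In bulk tissue, the cells that hold these transcripts cannot be told apart.

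The 9 myeloid and neutrophil markers summed to 631 to 1849 FPKM in CTR papillomas and to 3386, 4245 and 1782 FPKM in TG papillomas. Of them, 3 (*S100a8*, *S100a9* and *Csf1r*) had an unadjusted p under 0.05, all higher, beside 4.86% of all genes higher at that threshold. *S100a8* and *S100a9*, which activated keratinocytes also make, held nearly all of this sum, with 3356, 4212 and 1639 FPKM in TG 1 to TG 3. The other 7 markers summed to 30.9 to 43.4 FPKM in CTR papillomas and to 30.2, 32.4 and 143 FPKM in TG papillomas, so TG 3 alone was above the CTR range. The part of these cells and states in the values of *Smox*, *Sat1* and *Paox* was not tested.

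The regulators of ornithine decarboxylase overlapped between the groups. *Oaz1*, the widespread antizyme (chr10:80826656-80829290), was at 104, 133, 103 and 97.1 FPKM in CTR papillomas and at 137, 88.5 and 106 FPKM in TG papillomas, with the highest and the lowest value both in TG. Its difference was 0.00 ± 0.20 (SE, log2) and took either sign over the alternatives. *Oaz2*, a second antizyme (chr9:65676548-65690300), was at 6.73, 11.0, 10.4 and 8.86 FPKM in CTR papillomas and at 10.6, 6.62 and 16.4 FPKM in TG papillomas. Its difference of 0.20 ± 0.30 (SE, log2) was −0.11 without TG 3. *Azin1*, the antizyme inhibitor (chr15:38487430-38519266), was the most even member in CTR papillomas at 8.64, 7.01, 7.72 and 7.83 FPKM. It was at 8.08, 7.84 and 12.7 FPKM in TG papillomas, where TG 3 alone exceeded the CTR range, and its difference of 0.24 ± 0.20 (SE, log2) was 0.03 without TG 3.

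The ratio of *Odc1* to *Azin1* was 10.7 to 17.9 in CTR papillomas and 9.59 to 11.2 in TG papillomas, overlapping only at CTR 2. The ratio of *Odc1* to *Oaz1* was 1.17, 0.566, 1.35 and 1.19 in CTR papillomas and 0.566, 0.882 and 1.34 in TG papillomas, with full overlap. Of the 40-base words, 56.3% of *Oaz1* and 15.1% of *Oaz2* occurred in other annotated genes, pseudogenes of each included, while *Azin1* shared none.

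**Figure D3:**
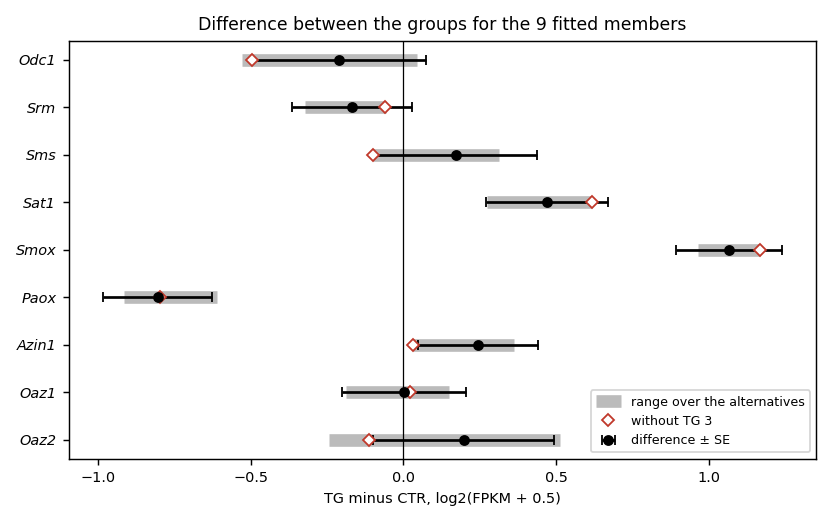
TG minus CTR difference on the log2(FPKM + 0.5) scale (x axis) for the 9 members that entered the fit. Black points with bars are the difference ± SE, grey bands the range over the alternative settings, and open diamonds the value without TG 3. *Smox*, *Sat1* and *Azin1* stay above 0 and *Paox* and *Srm* below 0 over their whole bands, and the bands of *Odc1*, *Sms*, *Oaz1* and *Oaz2* cross 0.

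Single papillomas had their own profiles over the members. TG 3 held the highest value of 4 of the 10 members (*Odc1*, *Sms*, *Azin1* and *Oaz2*) and the lowest of *Srm*. It was also the papilloma with the muscle and fibroblast transcripts given above, whose part in these values was not tested. TG 1 held the highest *Smox*, *Sat1* and *Oaz1* and the lowest *Paox*. CTR 2 held the lowest *Smox*, *Odc1*, *Sat1* and *Azin1*. For *Smox*, *Sat1* and *Paox*, the distance from the CTR mean was largest in TG 1, at 1.23, 0.86 and −1.01 on the log2 scale.

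**Figure D4:**
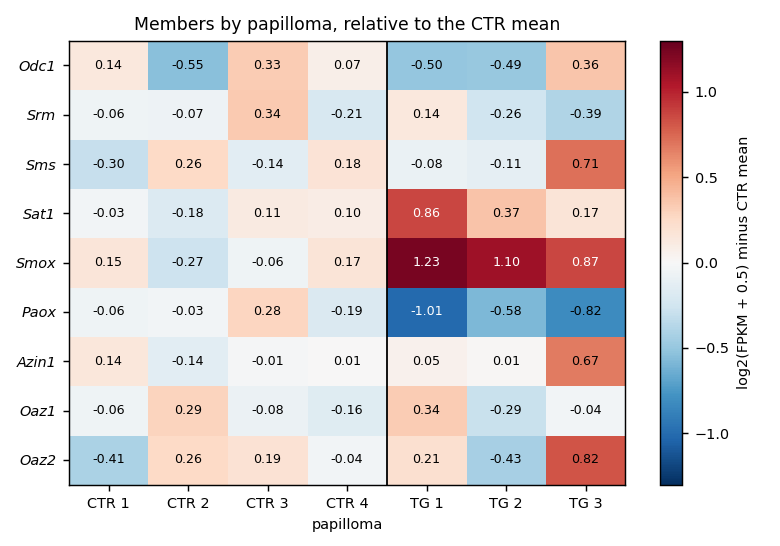
Level of the 9 fitted members in each papilloma on the log2(FPKM + 0.5) scale after subtracting the mean of the CTR papillomas (rows are genes in order of role, columns papillomas, the number in a cell is the plotted value). *Smox* lies between 0.87 and 1.23 and *Paox* between −1.01 and −0.58 in TG papillomas, while *Odc1* is at −0.50, −0.49 and 0.36.

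Across the 12299 genes, the pattern of *Smox* over the 7 papillomas was most like that of *Fnbp1* (Pearson r = 0.987), *Ksr1* (0.986), *Cgrrf1* (0.985), *Gpr56* (0.971) and *Gna15* (0.967), on the log2 scale. *Fnbp1* was at 6.47 to 8.27 FPKM in CTR and 10.45 to 11.6 FPKM in TG papillomas. With 7 papillomas in 2 separated groups, the group difference enters each of these r. The pattern of *Odc1* was most like those of *Fuz* (0.990), *Cog7* (0.988), *Arc* (0.987), *Slco4a1* (0.985) and *Zfp937* (0.985). *Arc* was at 5.47 FPKM in CTR 2 and 5.12 and 7.58 FPKM in TG 1 and TG 2, the papillomas of low *Odc1*, and at 15.6 to 25.0 FPKM in the others. These are the closest of many genes over few papillomas and are given as a description.

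The genes around the route were examined as 6 lists, of which 46 of 63 genes were expressed enough to be fitted. *Amd2* was among the 46, although it had the status for low data in every papilloma and cannot be read apart from *Amd1*. Of the 46, 1 was higher and 1 lower in TG papillomas at an unadjusted p under 0.05 from limma, beside 4.86% and 1.96% of all genes, and none passed the adjusted threshold. The median difference over the 46 genes was −0.04, beside 0.06 over all genes. Both genes belonged to the list of transport. *Atp13a4*, a P-type ATPase of a family that carries polyamines, was at 5.56, 1.37, 4.87 and 5.57 FPKM in CTR 1 to CTR 4 and at 10.8, 9.10 and 9.14 FPKM in TG 1 to TG 3. Every TG papilloma was higher, with a difference of 1.21 ± 0.40 (SE, log2, unadjusted p = 0.0137, adjusted p = 0.666, limma). *Slc3a2*, the heavy chain of several amino acid exchangers, was at 82.6, 51.4, 62.3 and 53.0 FPKM in CTR papillomas and at 41.8, 46.2 and 46.1 FPKM in TG papillomas. Its difference was −0.45 ± 0.20 (SE, log2, unadjusted p = 0.0469, adjusted p = 0.729, limma). *Cav1*, which encodes caveolin of the plasma membrane, was at 19.6 to 44.8 FPKM in CTR and at 19.9 to 50.1 FPKM in TG papillomas.

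In the other 5 lists, 0 of 38 fitted genes had an unadjusted p under 0.05. Among other polyamine enzymes and regulators, *Arg1*, the arginase that supplies ornithine, was at 336 to 543 FPKM in CTR and at 320, 410 and 666 FPKM in TG papillomas. *Nqo1*, whose product protects ornithine decarboxylase from decay, was at 44.7 to 70.3 FPKM in CTR and at 49.8, 37.9 and 20.9 FPKM in TG papillomas, a difference of −0.64 ± 0.30 (SE, log2, adjusted p = 0.767, limma). *Oat*, the ornithine aminotransferase, was at 19.5 to 34.6 FPKM in CTR and 16.4 to 40.7 FPKM in TG papillomas. *Ass1*, which makes argininosuccinate, varied from 9.31 FPKM in TG 3 to 105 FPKM in CTR 3 and not by group.

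The methionine cycle supplies the aminopropyl donor and salvages its residue. *Mat2a*, which makes S-adenosylmethionine, was at 37.0 to 98.6 FPKM in CTR and 51.4 to 86.3 FPKM in TG papillomas, and *Mtap*, which clears methylthioadenosine, was at 33.7 to 57.6 FPKM and 24.7 to 72.6 FPKM. *Eif5a*, which carries the hypusine residue made from spermidine, was among the most abundant of these genes at 473 to 753 FPKM in CTR and 386 to 754 FPKM in TG papillomas. *Dohh*, the hydroxylase that completes hypusine, was at 14.8 to 18.8 FPKM and 13.9 to 24.4 FPKM. In the Myc network, whose MYC proteins activate *Odc1*, *Max* was at 34.3 to 42.8 FPKM in CTR and 37.0 to 39.9 FPKM in TG papillomas, and *Mxd1*, a MAX partner that opposes MYC, at 18.3 to 38.5 FPKM and 30.0 to 68.5 FPKM. Of 10 proliferation markers, all had a lower mean in TG papillomas, beside 4916 of all 12299 genes. Their median difference was −0.34, beside 0.06 over all genes. None had an unadjusted p under 0.05, and 0 had every TG papilloma below every CTR papilloma.

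**Figure D5:**
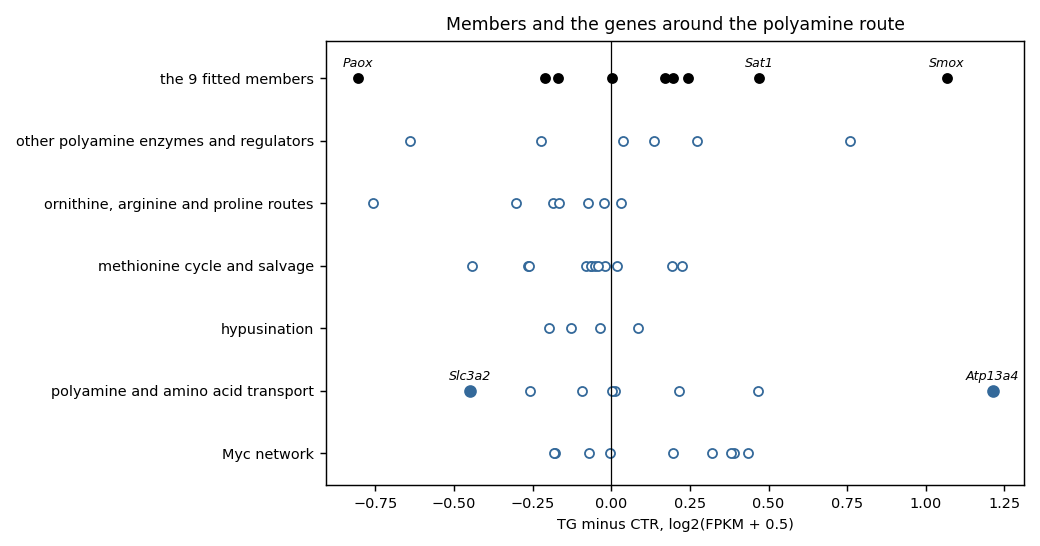
TG minus CTR difference on the log2(FPKM + 0.5) scale (x axis) for the 9 fitted members (black, chosen on this comparison) and the 46 fitted genes of 6 surrounding lists (rows). Filled blue points are the 2 genes with an unadjusted p under 0.05 from limma, *Slc3a2* at −0.45 and *Atp13a4* at 1.21, and open points the others.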

How the data were processed

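RNA-seq of 4 CTR and 3 TG papillomas was used, grouped by the sample titles. Per the methods, stranded libraries of polyA+ RNA gave single reads of 40 bases. The labels and the paper name different RNA extraction kits. The authors deposited FPKM values per gene with confidence intervals and a status, made with TopHat 2.0.4, Bowtie 0.12.7 (2 mismatches and 5 multihits allowed), SAMtools 0.1.16 and Cufflinks 1.3.0 on GRCm38/mm10. Cufflinks divides reads between overlapping and near-identical genes by a model, so such genes can trade signal. The files give no read numbers. Depth was inferred from interval widths and is approximate, and intervals cover counting error only. File coordinates are printed 1-based.

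Entries of 1 symbol were summed (240 symbols), and 162 symbols with a failed estimate in any papilloma were left out. Genes whose mean over all 7 papillomas reached 0.5 FPKM were fitted on log2(FPKM + 0.5) with limma 3.58.1 (R 4.3.3), with a trend and Benjamini-Hochberg adjustment over all 12299 genes. The fit was tested on simulated data. Tables and figures used Python 3.11.15, pandas 2.3.3, numpy 2.4.6 and matplotlib 3.10.9. Promoters are from RefSeq and transcripts from GENCODE vM21.

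The members and gene lists were chosen with earlier results of these data known. The genes named are the members, genes of the 6 lists with an unadjusted p under 0.05, the 2 genes of highest mean FPKM in each list, and the 5 nearest patterns of *Smox* and *Odc1*. *Ddx3y*, *Xist* and the cell type markers named were picked after their values were seen. 17 alternatives were planned and 3 were added after seeing the data, namely values of every status, *Amd1* and *Amd2* summed, and the papillomas of lower depth only (without CTR 3 and TG 1).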

Additional observations from a re-analysis of the deposited data

How the results depend on the processing

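The differences of the members were recomputed under 20 alternatives. All 179 values lay within 1 SD (over papillomas of a group, log2 scale) of those reported. Part of this was fixed in advance. The other filters, limma without a trend and the highest entry of a symbol cannot move these differences. The same holds for values of every status and for *Amd1* and *Amd2* summed. The replicate block gave the same differences as leaving out CTR 4. *Smox*, *Sat1* and *Azin1* were higher and *Paox* and *Srm* lower in TG papillomas in each, and the sign of the other 4 fitted members varied. Counts of genes moved more. Sample quality weights called 49 genes as higher and 36 as lower after adjustment (limma) where the fit reported gave 0 of each, and the papillomas of lower depth gave 1 higher. Leaving out 1 papilloma in turn gave 0 to 9 higher and 0 to 8 lower, the most without TG 3. At an unadjusted p under 0.05, the count of genes higher was 954 with no filter and 1161 with weights, and 364 to 824 with 1 papilloma left out, lowest without CTR 3. The count of genes lower was 439 with upper-quartile scaling, 551 with quantile normalization and 1248 with weights, and 121 without TG 2 to 522 without TG 3. Of the pathway genes, weights gave 3 higher and 7 lower, upper-quartile scaling, quantile normalization and the papillomas of lower depth gave 2 lower, limma without a trend gave 0 lower, and leaving out 1 papilloma gave 1 to 3 higher and 0 to 3 lower. *Slc3a2* therefore did not hold at this threshold in every alternative. Upper-quartile scaling left 1 member with every TG above every CTR papilloma, and the papillomas of lower depth gave 2 with every TG below, *Srm* being the added one. Leaving out 1 papilloma gave 2 to 3 members above (*Azin1* added without CTR 1) and 1 to 2 below. The cause of these moves was not tested.

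Both groups carry replicate numbers 1 to 3, but the deviations of same-numbered papillomas correlated at −0.19, 0.04 and −0.15, so the numbers were not taken as pairs. The fit with a replicate block, which drops CTR 4, gave 505 genes higher and 170 lower at an unadjusted p under 0.05 and 0 adjusted, with *Smox* at 1.12, *Paox* at −0.87 and *Sat1* at 0.50. With 3 against 4 mice, only differences well beyond the spread between mice can be seen, and *Sms*, at 73 to 168 implied reads, is the least precise member.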
